A study of Mus musculus with 24 samples.

Results

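The genes described here are 39 potassium channel genes and genes of their auxiliary subunits, taken by name from the 22314 named lines of the expression table. They comprised 15 voltage-gated pore genes (Kv), 6 inward rectifier genes (Kir), 6 K2P background channel genes, 3 small-conductance genes (SK), the large-conductance gene Kcnma1 with its sodium-activated relatives Kcnt1 and Kcnt2, and 6 auxiliary genes. All 39 passed the filter on low values. Potassium channels let potassium leave the cell and so set the resting potential, end the action potential and limit repetitive firing. Kv channels open on depolarisation, Kir and K2P channels hold the cell near rest, and SK and BK channels are opened by calcium. In hippocampal pyramidal neurons, Kv4 channels carry the dendritic A-type current, Kv7 channels the M-current, and Kv1 channels act in the axon.

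RNA came from the hippocampus of mice subjected to hypoxia-ischemia (HI) on postnatal day 10, a model of perinatal brain injury. The 24 libraries formed 12 groups of 2, from mice labelled Neil1-KO, Neil2-KO mice and wild-type (WT) mice, from the ipsilateral and the contralateral hippocampus, at 3 h and 6 h. Neil1 and Neil2 encode DNA glycosylases that remove oxidised bases. All mice had undergone HI, and no uninjured mice were analysed here, so each side comparison sets the injured hippocampus against the opposite one of HI mice. The sources used here do not give strain, sex, litters or how the alleles were made. The tests treat the 24 libraries as separate samples, although ipsilateral and contralateral libraries that share a number may come from 1 animal.

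Libraries held 17771293 to 29252067 reads. Neil2 had 9 pooled reads in the 8 Neil2-KO libraries, against 163 in the 8 WT libraries. Neil1 averaged 125.8 ± 23.3 normalised counts in the libraries labelled Neil1-KO and 98.0 ± 22.2 in WT libraries (SD, n = 8 each). That transcript check does not bear out the Neil1-KO label, and directions given for those libraries follow the label. For Neil2-KO the group came from the title, since the genotype tag there names the other knockout. Labelled Neil1-KO ipsilateral 6 h replicate 2 stood apart from the other libraries, with 12.5% of its reads on unnamed lines and the lowest summed level of 10 neuron markers (78132). For the tissue label, none of the 10 neuron markers or 10 hippocampal subfield markers was at 0 in any library.

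In the injured hippocampus most of the 39 genes were expressed at lower levels than in the opposite hippocampus. Averaged over the 6 combinations of genotype and time, 30 of the 39 genes were lower and 1, Kcnip3, was higher on the ipsilateral side (limma on log2 normalised counts with a pseudocount of 1, Benjamini-Hochberg adjusted p under 0.05 over 18364 genes). Of all genes tested, 27.3% were lower and 28.1% higher by the same rule. The 39 genes were chosen with earlier results of these data known. Other potassium channel genes on a fixed list, described below, were lower and higher in shares close to those of all genes. The median log2 fold change was -0.64 over the 39 genes and 0.02 over all genes tested. The counts remained between 30 and 33 when each of the 24 libraries was left out in turn. With a term for thalamus markers in the fit 24 genes were lower and 0 higher. Kcna6, Kcnj11, Kcnk9, Kcnt1, Kcnt2, Kcnip4 and Kcnip3 did not pass the test there. The share of all genes called in that fit is not given here. In the plot of log2 fold changes by gene and set, the blue of lower ipsilateral levels runs through nearly all Kv1, Kv4 and Kv7 genes, while Kcnj9, Kcnk3, Kcnn3, Kcnip1 and Kcnip3 stay pale or turn red.

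**Figure D1:**
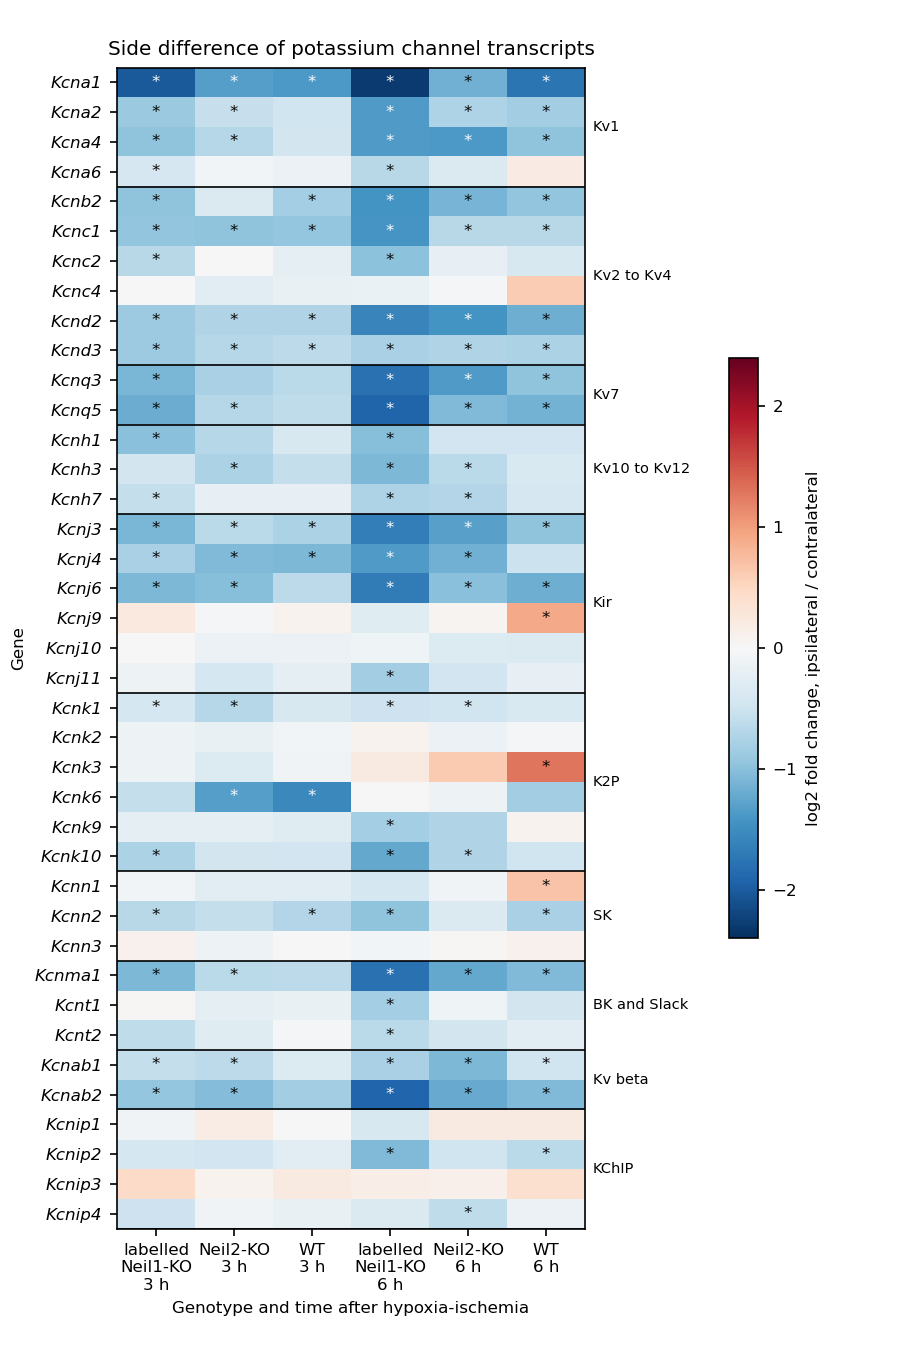
Log2 fold change, ipsilateral over contralateral, for the 39 potassium channel genes (rows, by subclass) in each genotype at 3 h and 6 h (columns; knockouts left of WT), 2 libraries a group; blue is lower and red higher on the ipsilateral side, and an asterisk marks an adjusted p under 0.05. Kcna1 is at -1.15 or below in every column, and the 3 asterisks on red cells all lie in WT at 6 h.

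For 14 of the 39 genes the 12 ipsilateral libraries did not overlap the 12 contralateral ones and lay below them, as did those of 5.84% of all genes tested; they lay above for 0 of the 39 genes and 3.41% of all genes. The 14 were Kcna1, Kcna2, Kcna4, Kcnb2, Kcnd2, Kcnd3, Kcnq3, Kcnq5, Kcnj3, Kcnj6, Kcnk1, Kcnn2, Kcnma1 and Kcnab2. Kcna1, Kcnc1, Kcnd2, Kcnd3 and Kcnj3 were called lower in each of the 6 sets, as were 1.05% of all genes tested, and 0 of the 39 genes and 1.64% of all genes were called higher in each, but none of the 5 kept its call in WT mice at 3 h without contralateral replicate 2 or without ipsilateral replicate 2. The log2 fold change was negative in all 6 sets for 25 of the 39 genes (64.1%), against 20.9% of all genes tested.

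Neuron markers moved with these genes. In the same averaged comparison 9 of 10 neuron markers were lower, with a median log2 fold change of -0.51, and their summed level was 78132 to 142160 in the ipsilateral libraries, against 150370 to 173300 in the contralateral ones. Markers of hippocampal subfields were lower for 8 of 10 genes, and their summed level was 6430 to 12305 in the ipsilateral libraries, against 14822 to 19866 in the contralateral ones. Endothelial and mural markers were higher for 7 of 10 genes. Their summed level overlapped between the sides, with 11010 to 27008 in the ipsilateral libraries, against 9319 to 11545 in the contralateral ones. In these bulk libraries fewer neurons and less RNA per neuron cannot be told apart. Each library was also scaled to its mean log2 level of the 10 neuron markers, an alternative chosen after seeing the data. The median of all genes was then 0.44, against 0.02 without that scaling. Of the 39 genes 28 were called, 19 lower and 9 higher. The share of all genes called in each direction under this scaling is not given here. Among the 9, Kcna6, Kcnk2, Kcnn1, Kcnc4 and Kcnn3 lay below the median of all genes. Relative to the neuron markers Kcna1 stayed lowest (-1.23), Kcnab2, Kcnq3, Kcnq5, Kcnj6, Kcnd2, Kcnj3 and Kcnma1 lay between -0.74 and -0.65, and Kcna6, Kcnc2, Kcnj11, Kcnk9, Kcnt1, Kcnt2 and Kcnip4 changed sign. Summed levels of the other marker lists overlapped between the sides, with 3 of 10 astrocyte markers higher and 3 lower, 5 and 3 for microglia, 3 and 2 for inhibitory neurons, 4 and 2 for thalamus, 5 and 1 for striatum, 0 and 1 for choroid plexus, and 0 and 2 for the oligodendrocyte lineage.

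**Figure D2:**
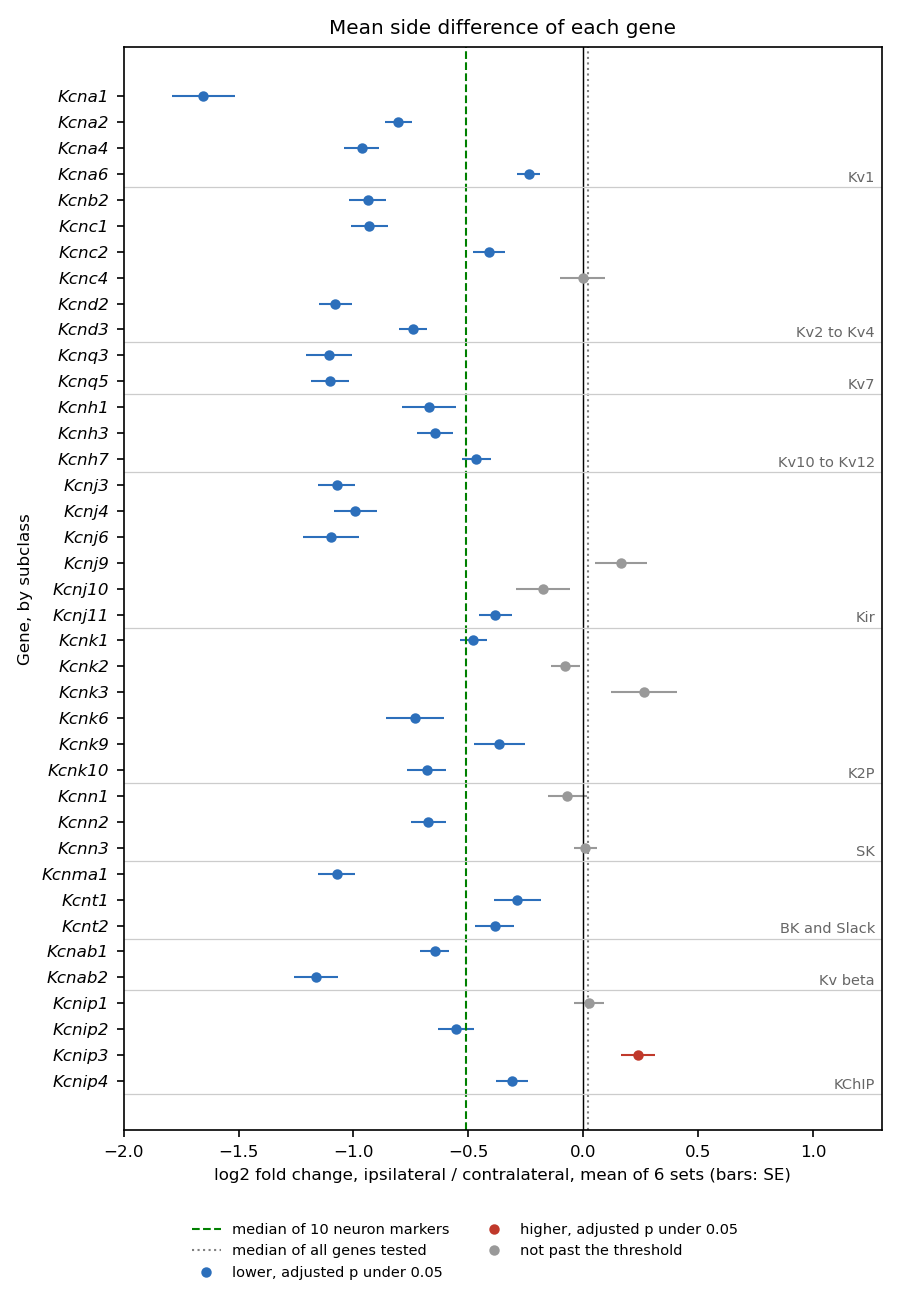
Log2 fold change, ipsilateral over contralateral, averaged over the 6 sets (x axis; bars are SE) for each of the 39 genes (y axis, by subclass); blue marks genes called lower, red the 1 called higher and grey those not past the threshold. Kcna1 stands farthest to the left at -1.65 and Kcnip3 is the red point at 0.24; scaled to neuron markers, 7 of the 30 lower genes change sign.

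All 4 Kv1 genes fell on the ipsilateral side in the averaged comparison, with a median log2 fold change of -0.88. Scaled to neuron markers Kcna6 turned higher (0.19, adjusted p = 0.000892), below the 0.44 median of all genes, and the other 3 stayed lower. Kcna1 encodes Kv1.1, an axonal channel whose human mutations cause episodic ataxia. It had 116 to 511 normalised counts (median 374) in the ipsilateral libraries, against 744 to 1492 (median 1138) in the contralateral ones. The sides were apart in every set, and the log2 fold change (-1.65 ± 0.14, adjusted p = 1.66e-08) was the most negative of the 39 genes. Its lowest level was found in ipsilateral replicate 2 of the labelled Neil1-KO mice at 6 h, with 116. Kcna2 (Kv1.2), the usual partner of Kv1.1 in axons, had 871 to 1590.0 normalised counts (median 1115) in the ipsilateral libraries, against 1666 to 2449 (median 2124) in the contralateral ones. Its log2 fold change was -0.81 ± 0.06, adjusted p = 4.42e-09. Kcna4 (Kv1.4), which gives fast-inactivating current, had 131 to 311 normalised counts (median 204) in the ipsilateral libraries, against 357 to 479 (median 419) in the contralateral ones, a log2 fold change of -0.96 ± 0.07, adjusted p = 7.83e-09. For both genes the sides did not overlap. Kcna6 (Kv1.6) moved least of the 4, with 745 to 1469.5 normalised counts (median 1142) in the ipsilateral libraries, against 1109 to 1454 (median 1339.5) in the contralateral ones. Its sides overlapped, and its log2 fold change was -0.24 ± 0.05, adjusted p = 0.000712.

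**Figure D3:**
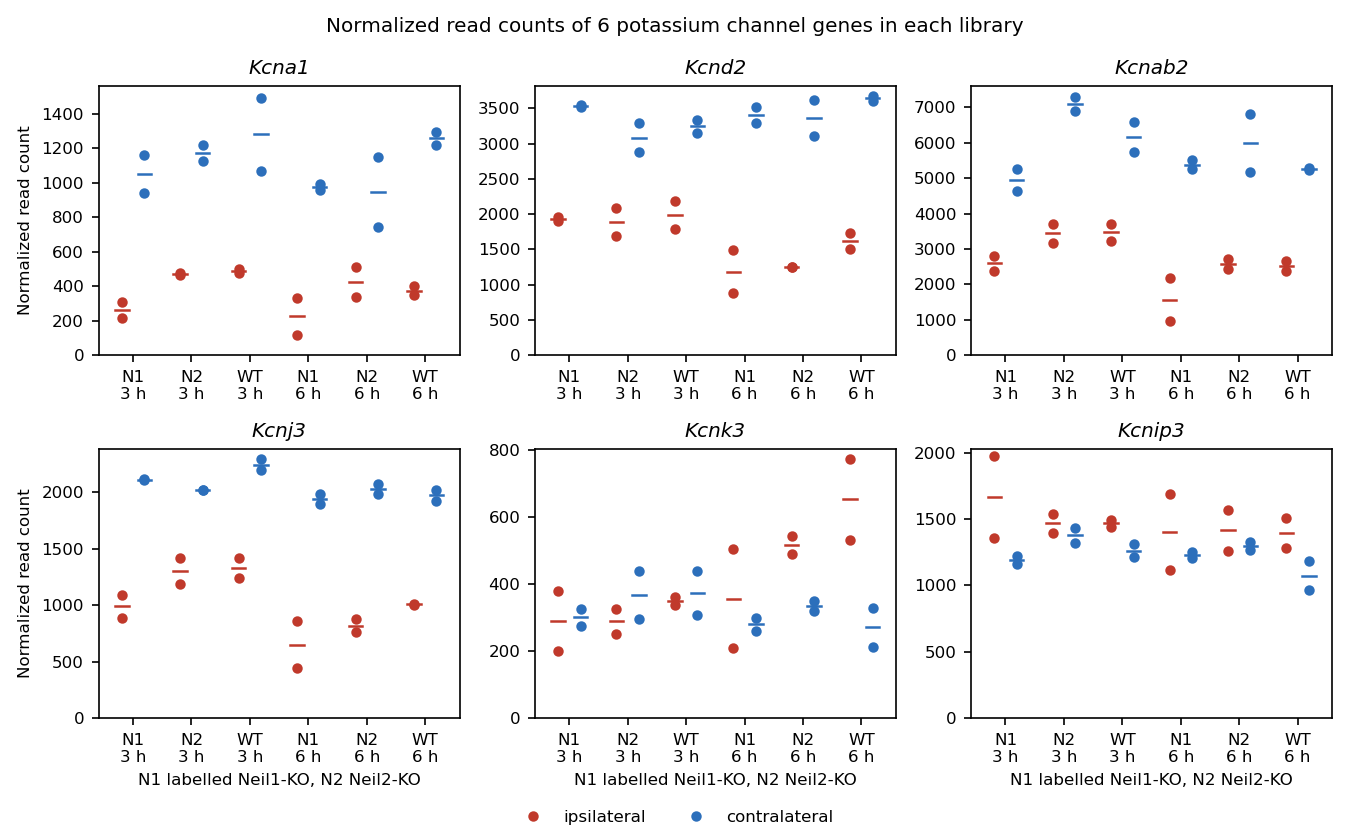
Normalised counts (y axis) of Kcna1, Kcnd2, Kcnab2, Kcnj3, Kcnk3 and Kcnip3 in each of the 24 libraries, by genotype and time (x axis); points are single libraries, ipsilateral in red to the left of contralateral in blue. For Kcna1, Kcnd2, Kcnab2 and Kcnj3 every red point lies below every blue one, while for Kcnk3 and Kcnip3 they overlap.

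Of the 6 genes of the Kv2, Kv3 and Kv4 families 5 fell on the ipsilateral side and Kcnc4 did not pass the test (median -0.84). Scaled to neuron markers Kcnc2 changed sign (0.01) and Kcnc4 was called higher (0.42, adjusted p = 0.000123), below the 0.44 median of all genes. Kcnd2 encodes Kv4.2, the main pore of the dendritic A-type current of hippocampal pyramidal neurons. It had 878 to 2190.5 normalised counts (median 1709) in the ipsilateral libraries, against 2879 to 3676 (median 3432) in the contralateral ones. The highest ipsilateral library lay well below the lowest contralateral one, and the log2 fold change was -1.08 ± 0.07, adjusted p = 1.14e-09. Kcnd3 (Kv4.3), its relative, had 1020.0 to 1512 normalised counts (median 1342) in the ipsilateral libraries, against 1841 to 2373 (median 2222) in the contralateral ones, a log2 fold change of -0.74 ± 0.06, adjusted p = 1.5e-08. Kcnb2 (Kv2.2), a delayed rectifier, had 156 to 384 normalised counts (median 311) in the ipsilateral libraries, against 410.3 to 643 (median 595) in the contralateral ones, a log2 fold change of -0.94 ± 0.08, adjusted p = 2.93e-08. Neither gene's sides overlapped. Among the Kv3 genes, known for fast repolarisation in fast-spiking cells, Kcnc1 fell by 0.93 ± 0.08 on the log2 scale and Kcnc2 by 0.41 ± 0.07. Kcnc4 (Kv3.4) had 588 to 1937 normalised counts (median 1072) in the ipsilateral libraries, against 805 to 1506 (median 989.9) in the contralateral ones, and its log2 fold change was -0.00 ± 0.10, adjusted p = 0.982. Its highest value, 1937, belonged to WT ipsilateral 6 h replicate 2.

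Both Kv7 genes fell on the ipsilateral side and stayed lower relative to the neuron markers (-0.68 each). Kcnq3 (Kv7.3) and Kcnq5 (Kv7.5) encode subunits of the M-current, which restrains repetitive firing. Kcnq3 had 934 to 3446 normalised counts (median 2566) in the ipsilateral libraries, against 4887 to 5559.9 (median 5099) in the contralateral ones, a log2 fold change of -1.11 ± 0.10, adjusted p = 5.52e-08. Kcnq5 had 372 to 1602 normalised counts (median 992) in the ipsilateral libraries, against 1824 to 2494 (median 1988) in the contralateral ones, a log2 fold change of -1.10 ± 0.08, adjusted p = 5.02e-09. The sides did not overlap for either gene, and both were lowest in the library that stood apart, ipsilateral replicate 2 of the labelled Neil1-KO mice at 6 h. All 3 ether-a-go-go family genes fell as well, with a median of -0.64. Kcnh1 (Kv10.1) had 156 to 432 normalised counts (median 338) in the ipsilateral libraries, against 407 to 788 (median 472) in the contralateral ones, a log2 fold change of -0.67 ± 0.12, adjusted p = 8.68e-05. Kcnh3 (Kv12.2), a channel of forebrain neurons, had 902 to 1939.9 normalised counts (median 1608) in the ipsilateral libraries, against 1928 to 3186 (median 2412) in the contralateral ones, a log2 fold change of -0.64 ± 0.08, adjusted p = 2.17e-06. Kcnh7 (Kv11.3) had 418 to 682 normalised counts (median 565) in the ipsilateral libraries, against 659 to 851 (median 725) in the contralateral ones, a log2 fold change of -0.47 ± 0.06, adjusted p = 7.64e-06. The sides of each of the 3 overlapped across sets but not within any set, and relative to the neuron markers Kcnh7 was at -0.04 (adjusted p = 0.546).

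Of the 6 Kir genes 4 fell on the ipsilateral side (median of the 6, -0.69), of which Kcnj11 changed sign when scaled to neuron markers, while Kcnj9 was then called higher (0.59, adjusted p = 0.000129). The GIRK subunits, which neurotransmitters open through G proteins, did not move together. Kcnj3 (GIRK1) had 443 to 1419.6 normalised counts (median 1007) in the ipsilateral libraries, against 1901 to 2292 (median 2026) in the contralateral ones, a log2 fold change of -1.07 ± 0.08, adjusted p = 4.62e-09. Kcnj6 (GIRK2) had 66.7 to 247 normalised counts (median 174) in the ipsilateral libraries, against 297 to 434 (median 369) in the contralateral ones, a log2 fold change of -1.10 ± 0.12, adjusted p = 6.77e-07. Neither gene's sides overlapped. Kcnj9 (GIRK3) had 592 to 1810.1 normalised counts (median 822) in the ipsilateral libraries, against 545 to 1262 (median 759) in the contralateral ones, and its log2 fold change of 0.16 ± 0.11, adjusted p = 0.236, did not pass the test. Kcnj4 (Kir2.3), a strong rectifier of forebrain neurons, had 285 to 1187 normalised counts (median 741) in the ipsilateral libraries, against 942 to 1988 (median 1504) in the contralateral ones, a log2 fold change of -0.99 ± 0.10, adjusted p = 1.09e-07. Within a set its sides overlapped only in WT at 6 h, with 739 and 1187 ipsilaterally and 1506 and 1181 contralaterally. Kcnj11 (Kir6.2), the pore of the ATP-sensitive channel, was lower by a small amount (-0.38 ± 0.07, adjusted p = 0.000173), which became 0.04 relative to the neuron markers. Kcnj10 (Kir4.1), the astrocyte channel that takes up potassium, had 1749 to 3896 normalised counts (median 2721) in the ipsilateral libraries, against 2478 to 4068 (median 2864) in the contralateral ones. Its sides overlapped and its log2 fold change was -0.18 ± 0.12, adjusted p = 0.218.

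Background K2P channels were mixed: 4 of 6 fell, none rose, and the median was -0.42. Scaled to neuron markers Kcnk9 changed sign and Kcnk2 (0.35) and Kcnk3 (0.69) were called higher, beside a median of 0.44 over all genes. Kcnk1 (TWIK-1) had 789 to 1293 normalised counts (median 1145) in the ipsilateral libraries, against 1297 to 1979 (median 1547) in the contralateral ones, a log2 fold change of -0.48 ± 0.06, adjusted p = 1.71e-06. Its sides did not overlap, but relative to the neuron markers it was at -0.05 (adjusted p = 0.439). Kcnk10 (TREK-2) had 248 to 501 normalised counts (median 424) in the ipsilateral libraries, against 486 to 798 (median 640.0) in the contralateral ones, a log2 fold change of -0.68 ± 0.09, adjusted p = 2.31e-06. Kcnk6 (TWIK-2), the member with the fewest reads, had 23.0 to 81.5 normalised counts (median 48.6) in the ipsilateral libraries, against 52.5 to 143 (median 72.3) in the contralateral ones, a log2 fold change of -0.73 ± 0.13, adjusted p = 7.93e-05, and -0.31 relative to the neuron markers (adjusted p = 0.0741). Both of these genes overlapped between the sides. Kcnk9 (TASK-3), an acid-sensitive channel, was at -0.37 ± 0.11, adjusted p = 0.0094. It turned to 0.06 relative to the neuron markers. Kcnk2 (TREK-1), which opens to membrane stretch and fatty acids, had 884 to 1281 normalised counts (median 983) in the ipsilateral libraries, against 999 to 1172 (median 1059) in the contralateral ones, with a log2 fold change of -0.08 ± 0.06, adjusted p = 0.323. Kcnk3 (TASK-1), also acid-sensitive, had 199 to 773 normalised counts (median 370.2) in the ipsilateral libraries, against 213 to 439.8 (median 314) in the contralateral ones. Its log2 fold change was 0.26 ± 0.14, adjusted p = 0.129. Kcnk2 and Kcnk3 did not pass the test, and their sides overlapped.

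Of the calcium-activated channel genes Kcnn2 and Kcnma1 fell and Kcnn1 and Kcnn3 did not pass the test. Scaled to neuron markers Kcnn1 (0.35, adjusted p = 0.000232) and Kcnn3 (0.43, adjusted p = 9.6e-05) were called higher. Both lay below the median of all genes under that scaling (0.44). Kcnma1 (BK), which links calcium entry to fast repolarisation, had 880.4 to 2829.7 normalised counts (median 2029) in the ipsilateral libraries, against 3776 to 4326 (median 4035) in the contralateral ones. The sides did not overlap, and the log2 fold change was -1.07 ± 0.08, adjusted p = 5.54e-09. Kcnn2 (SK2), which shapes the afterhyperpolarisation and synaptic potentials of pyramidal neurons, had 334 to 701 normalised counts (median 612) in the ipsilateral libraries, against 789 to 1325 (median 897) in the contralateral ones, again without overlap (-0.68 ± 0.08, adjusted p = 7.5e-07). Kcnn1 (SK1) had 226 to 664 normalised counts (median 411) in the ipsilateral libraries, against 281 to 582 (median 432) in the contralateral ones, a log2 fold change of -0.07 ± 0.08, adjusted p = 0.504. Kcnn3 (SK3) had 416 to 535 normalised counts (median 469) in the ipsilateral libraries, against 393 to 532 (median 478) in the contralateral ones, a log2 fold change of 0.01 ± 0.05, adjusted p = 0.897. The SE of Kcnn3 was the smallest of the 39 genes. The sodium-activated genes Kcnt1 (Slack) and Kcnt2 (Slick) were lower by 0.29 ± 0.10 and 0.39 ± 0.09 on the log2 scale (adjusted p = 0.0257 and 0.000973), and both turned higher, past no threshold, relative to the neuron markers (0.14 and 0.04). Kcnt1 lost its call when any of 6 libraries was left out, namely WT contralateral 3 h replicate 2, Neil2-KO contralateral 3 h replicate 2, Neil2-KO contralateral 6 h replicate 1, labelled Neil1-KO contralateral 3 h replicate 2 and 6 h replicate 2, and labelled Neil1-KO ipsilateral 3 h replicate 1.

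Of the 6 auxiliary subunit genes 4 fell on the ipsilateral side, 1 rose and 1 did not pass the test. Both Kv beta genes, whose cytoplasmic proteins bind Kv1 channels, fell on the ipsilateral side. Kcnab2 (Kvbeta2) had 964 to 3716 normalised counts (median 2690.0) in the ipsilateral libraries, against 4646 to 7292 (median 5401) in the contralateral ones. Its sides did not overlap, and its log2 fold change (-1.16 ± 0.10, adjusted p = 1.9e-08) was second in size to that of Kcna1. Kcnab1 (Kvbeta1) had 494 to 1021 normalised counts (median 748) in the ipsilateral libraries, against 1018 to 1454 (median 1179.9) in the contralateral ones. Its log2 fold change was -0.65 ± 0.06, adjusted p = 1.58e-07, and a single pair of values made the sides overlap, 1021 in WT ipsilateral 3 h replicate 1 and 1018 in labelled Neil1-KO contralateral 6 h replicate 1. The KChIP genes encode calcium-binding partners of Kv4 channels, and they moved in different directions. Scaled to neuron markers Kcnip4 changed sign and Kcnip2 did not pass the test. Kcnip1 (0.45) and Kcnip3 (0.66) were then called higher, beside a median of 0.44 over all genes. Kcnip2 had 905 to 2283 normalised counts (median 1778) in the ipsilateral libraries, against 2200.1 to 3226 (median 2350.3) in the contralateral ones, a log2 fold change of -0.55 ± 0.08, adjusted p = 7.64e-06. Kcnip4 had 344 to 677 normalised counts (median 431) in the ipsilateral libraries, against 434 to 631 (median 567) in the contralateral ones, a log2 fold change of -0.31 ± 0.07, adjusted p = 0.00103, and 0.11 relative to the neuron markers. Kcnip3, also known as DREAM, a calcium-dependent transcriptional repressor, had 1117 to 1978 normalised counts (median 1469.6) in the ipsilateral libraries, against 968 to 1436 (median 1238) in the contralateral ones. It was the only member called higher in the averaged comparison (0.24 ± 0.07, adjusted p = 0.0105). Its sides overlapped, and the fold change was positive in each of the 6 sets without passing the test in any single one. With a term for thalamus markers in the fit it was at 0.16 (adjusted p = 0.352) and no longer called. Kcnip1 had 469 to 859.8 normalised counts (median 752) in the ipsilateral libraries, against 636 to 834 (median 740.3) in the contralateral ones, a log2 fold change of 0.02 ± 0.07, adjusted p = 0.779.

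Promoter sequences were examined for short motifs of factors that neuronal activity or stress is known to engage, because KChIP genes were called in opposite directions. RefSeq promoter entries (build GRCm38.p6) matched 29 of the 39 genes with 48 entries, and the 250 bases before each start were searched on both strands. The AP-1 motif TGANTCA, bound by Fos and Jun dimers, was in 6.25% of the members' entries and in 6.75% of all 32851. It occurred in Kcnip3, which was higher on the ipsilateral side, in Kcnip4, which was lower but changed sign relative to the neuron markers, and in Kcnk2, which did not pass the test. The stretches around these matches are printed 5′ to 3′ on the minus strand of the genome, with the motif in capitals, from chr2:127522170-127522256, chr5:49285695-49285781 and chr1:189344272-189344358; the matches begin 122, 82 and 126 bases before the start.
Kcnip3: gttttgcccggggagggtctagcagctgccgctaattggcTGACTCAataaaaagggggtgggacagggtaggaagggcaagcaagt
Kcnip4: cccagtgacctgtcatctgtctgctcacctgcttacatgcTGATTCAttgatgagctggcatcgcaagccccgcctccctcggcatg
Kcnk2: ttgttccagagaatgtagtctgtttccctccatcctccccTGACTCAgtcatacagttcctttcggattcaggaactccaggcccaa
Kcnab2 had the largest decrease among the auxiliary subunits. It held 2 copies of the half-site TGACG of the cAMP response element on the opposite strand, so they read CGTCA as printed. Its stretch lies at chr4:152477669-152477764 on the minus strand, and the first match begins 175 bases before the start.
Kcnab2: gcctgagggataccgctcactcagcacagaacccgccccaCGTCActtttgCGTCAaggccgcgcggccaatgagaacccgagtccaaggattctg
The half-site was in 14.6% of the members' entries (Kcna6, Kcnab2, Kcnc1, Kcnc4, Kcnj4, Kcnn1 and Kcnt2) and in 17.8% of all. The full element TGACGTCA was in 0 of 48 member entries and 1.55% of all, and the EGR motif GCGTGGGCG in 0 of 48 and 0.536%. The E-box CACGTG was in 4.17% (Kcnab1) and 6.02%, and the TATA motif TATAAA in 2.08% (Kcnj9) and 12.4%. The half-site is contained in the full element. These letter matches are descriptions of the windows and not of binding.

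Levels of different genes were compared only after division by length, as normalised counts per kilobase of exon (union of GENCODE M21 basic exons) in the 4 contralateral WT libraries. Kcnab2 was highest with 1383 ± 151 per kilobase (SD, n = 4) and Kcnip2 next with 1008 ± 115, and their libraries did not overlap. Kcnj4 (729.5 ± 154.5), Kcnk1 (683 ± 39.7), Kcnd2 (668 ± 46.8) and Kcnh3 (649.8 ± 147) followed and overlapped each other. Kcnj10 had 528 ± 53.3, and Kcnj3 had 404 ± 31.9. At the low end were Kcnh7 (51.4 ± 3.92), Kcnb2 (40.8 ± 1.58) and Kcnk6 (21.5 ± 3.52), whose libraries did not overlap. The lowest library of Kcnip2 (905) lay below the highest of Kcnj4 (924), so Kcnab2 alone was apart from all pore genes. The exon lengths came from an annotation that may differ from the authors'.

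The 6 combinations of genotype and time were also compared singly, with 2 libraries a side, where 1 library can decide many calls. At 3 h the labelled Neil1-KO mice had 22 genes lower and 0 higher (9.85% lower and 7.2% higher among all genes tested), with Kcna1 at -2.02 ± 0.33, adjusted p = 0.000649, and Kcnq5 at -1.19 ± 0.20, adjusted p = 0.000816. The count was 13, 10 and 10 without contralateral replicate 1, contralateral replicate 2 and ipsilateral replicate 1. Neil2-KO mice at 3 h had 16 lower and 0 higher (4.95% lower and 4.29% higher among all genes), led by Kcnk6 and Kcna1 (-1.32 and -1.32). That count was 3, 4, 8 and 0 without contralateral replicates 1 and 2 and ipsilateral replicates 1 and 2. In WT mice at 3 h 9 were lower and 0 higher (1.79% lower and 2.49% higher among all genes), namely Kcna1, Kcnb2, Kcnc1, Kcnd2, Kcnd3, Kcnj3, Kcnj4, Kcnk6 and Kcnn2. It was 6, 0, 2 and 0 without contralateral replicates 1 and 2 and ipsilateral replicates 1 and 2. At 6 h the labelled Neil1-KO mice had 28 lower and 0 higher (21.4% lower and 17.6% higher among all genes), with Kcna1 at -2.31 ± 0.33, adjusted p = 5.04e-05, Kcnq5 at -1.93 ± 0.20, adjusted p = 3.36e-06, and Kcnab2 at -1.90 ± 0.24, adjusted p = 1.52e-05. Left-out counts there were 24 to 30. Neil2-KO mice at 6 h had 20 lower and 0 higher (12.6% lower and 12.2% higher among all genes), led by Kcnd2 and Kcna4 (-1.43 and -1.38), and 13 without ipsilateral replicate 1. WT mice at 6 h had 16 lower (10.3% of all genes) and 3 higher (10.4% of all genes), and 11 lower and 0 higher without contralateral replicate 2. A gene called in 1 set and not in another is not shown by this to differ between them.

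The 3 genes higher in WT mice at 6 h were Kcnk3, Kcnj9 and Kcnn1. Kcnk3 had 531 and 773 normalised counts ipsilaterally, against 328 and 213 contralaterally (1.28 ± 0.35, adjusted p = 0.0156). Kcnj9 had 742 and 1810.1 ipsilaterally, against 653 and 584 contralaterally (0.91 ± 0.28, adjusted p = 0.0282). Kcnn1 had 409 and 664 ipsilaterally, against 370.3 and 281 contralaterally (0.69 ± 0.21, adjusted p = 0.0252). In all 3 the ipsilateral pair lay above the contralateral pair, and ipsilateral replicate 2 was the higher of the pair. Without that library Kcnk3 was at 1.01 (adjusted p = 0.145), Kcnj9 at 0.26 (adjusted p = 0.483) and Kcnn1 at 0.34 (adjusted p = 0.334). In a fit of the compared groups alone Kcnj9 and Kcnn1 were no longer called (adjusted p = 0.127 and 0.105), and Kcnk3 was (adjusted p = 0.0163). Without contralateral replicate 2 the values were 0.96, 0.83 and 0.49 (adjusted p = 0.173, 0.16 and 0.24), and without contralateral replicate 1 Kcnj9 was at 0.99 (adjusted p = 0.0774). Single markers of neighbouring tissue went both ways. The thalamus marker Tcf7l2 had 582 and 939.6 normalised counts ipsilaterally, against 178 and 153 contralaterally. Rora, Lef1 and Gbx2 were also higher in both ipsilateral libraries. Plekhg1 (660 and 513, against 963 and 1151) and Ntng1 (493 and 550, against 636 and 558) were lower. The summed level of 10 striatum markers was 1794 and 3146 ipsilaterally, against 1838 and 1763 contralaterally. The summed level of 10 thalamus markers was 4301 and 4715 ipsilaterally, against 3857 and 4209 contralaterally. With a term for the thalamus markers in the fit, none of the 39 genes was called in WT mice at 6 h, and Kcnk3, Kcnj9 and Kcnn1 were at 1.81, 1.06 and 0.84 (adjusted p = 0.101, 0.241 and 0.211). The averaged comparison without WT at 6 h left Kcnip3 higher (0.21, adjusted p = 0.0361), while Kcnt1 was no longer called lower.

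The side difference changed with time for 1 of the 39 genes, Kcnd2, when averaged over genotypes, against 0.463% of all genes tested that became more negative and 1.43% that became more positive. The median change of the side difference was -0.16 over the 39 genes and -0.01 over all genes. At 6 h Kcnd2 had 1483 and 878 normalised counts ipsilaterally, against 3525 and 3295 contralaterally in labelled Neil1-KO mice. It had 1249 and 1243, against 3112 and 3611 in Neil2-KO mice, and 1730.3 and 1511, against 3676 and 3605 in WT mice. At 3 h the ipsilateral values were higher: 1960.0 and 1901, against 3542 and 3524 contralaterally in labelled Neil1-KO mice, 2085 and 1688, against 3291 and 2879 in Neil2-KO mice, and 2190.5 and 1788, against 3340.5 and 3154 in WT mice. Every ipsilateral library at 6 h except WT replicate 1 (1730.3) lay below every ipsilateral library at 3 h, of which the lowest was Neil2-KO replicate 2 (1688). The mean log2 fold change between the sides was -1.39 at 6 h and -0.77 at 3 h, a difference of -0.63 ± 0.14, adjusted p = 0.0318. The call was kept in 11 of 24 fits that each left out 1 library. It was lost without any 1 of the 4 contralateral WT libraries, WT ipsilateral 3 h replicate 1, labelled Neil1-KO contralateral 3 h replicate 1 and 6 h replicates 1 and 2, Neil2-KO contralateral 3 h and 6 h replicate 2, Neil2-KO ipsilateral 3 h replicate 1, and Neil2-KO ipsilateral 6 h replicates 1 and 2. The number of genes called was 0 in each of these fits, 3 without labelled Neil1-KO ipsilateral 3 h replicate 1 or 6 h replicate 2, and 11 without labelled Neil1-KO ipsilateral 6 h replicate 1. With the thalamus term the difference was -0.53 (adjusted p = 0.285), and scaled to neuron markers -0.36 (adjusted p = 0.0661).

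**Figure D4:**
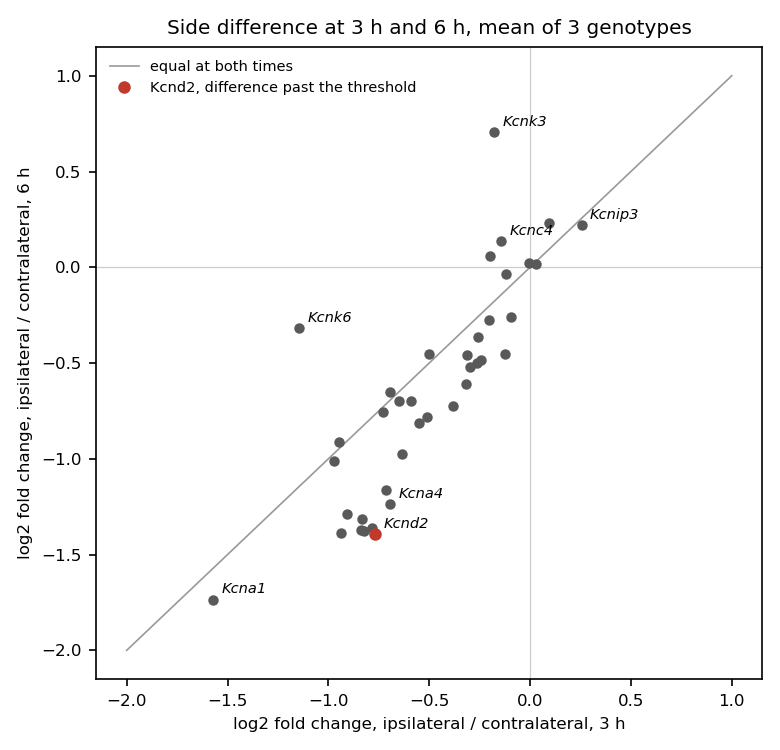
Log2 fold change, ipsilateral over contralateral, at 6 h (y axis) against 3 h (x axis), each the mean of 3 genotypes, for the 39 genes; the line marks equal values and the red point is Kcnd2. Most genes with a negative value lie below the line, while Kcnk3 (0.70 at 6 h, -0.18 at 3 h) and Kcnk6 (-0.32 at 6 h, -1.14 at 3 h) lie above it without passing the test.

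In the plot of side differences at 6 h against 3 h, a group of genes near Kcnd2 lies below the line of equal values. It holds Kcnma1, Kcnq5, Kcna4 and Kcnq3, whose differences of -0.58, -0.55, -0.54 and -0.53 did not pass the test (adjusted p = 0.0742, 0.0911, 0.0705 and 0.184). Among the 6 K2P genes Kcnk9 and Kcnk10 also lie below the line, and those farthest above it did not pass the test: Kcnk3 at 0.88 ± 0.29, adjusted p = 0.119, and Kcnk6 at 0.83 ± 0.25, adjusted p = 0.0953. Compared within the ipsilateral side, 13 of the 39 genes were lower at 6 h than at 3 h and Kcnk3 was higher, against 7.52% and 5.14% of all genes tested, and the median was -0.30 over the 39 genes and -0.01 over all genes. The 13 were Kcna2, Kcna4, Kcnb2, Kcnc2, Kcnd2, Kcnq3, Kcnq5, Kcnj3, Kcnn2, Kcnma1, Kcnab1, Kcnab2 and Kcnip2. Kcnq5 had the largest of these decreases (-0.65 ± 0.12, adjusted p = 0.00238), followed by Kcnc2 (-0.61 ± 0.10, adjusted p = 0.00156) and Kcnj3 (-0.58 ± 0.11, adjusted p = 0.00363). Kcnc2 had 475 and 287, 617 and 669, and 595 and 463 normalised counts at 6 h in labelled Neil1-KO, Neil2-KO and WT mice, against 473 and 577, 1019 and 877, and 935 and 868 at 3 h. The labelled Neil1-KO pairs touched at 475 and 473 while the other pairs were apart. Contralateral Kcnc2 was also lower at 6 h, with 678 to 783 normalised counts, against 809 to 1067 at 3 h, though limma did not call it. Its mean side difference was -0.52 at 6 h and -0.30 at 3 h, a change that was not called. The call of Kcnk3 (0.65 ± 0.20, adjusted p = 0.0414) was kept only without WT 6 h replicate 1, labelled Neil1-KO 3 h replicate 2 or 6 h replicate 2, or Neil2-KO 3 h replicate 2, and without any other ipsilateral library its adjusted p was 0.0731 to 0.134. Without Neil2-KO ipsilateral 3 h replicate 1 the number called was 9, all lower, and with the thalamus term it was 0. Neuron markers moved with these genes, with 6 of 10 lower at 6 h (median -0.39). Scaled to them, 10 of the 39 genes were higher and 6 lower, and Kcna2 turned to 0.04. The median of all genes was 0.32 under that scaling, and the share of all genes called in each direction is not given here. On the contralateral side none of the 39 genes was called at 6 h against 3 h (0.332% of all genes were called in either direction), with 6 genes at an unadjusted p under 0.05 by limma, 6 by edgeR and 7 by DESeq2, of which DESeq2 called 1, and the most negative value was -0.46 ± 0.18, adjusted p = 0.292 for Kcnk6.

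Genotype differences in these genes appeared on the ipsilateral side of the mice labelled Neil1-KO. Over both times 17 of the 39 genes were lower and 0 higher in labelled Neil1-KO than in WT ipsilateral libraries, against 7.4% and 1.91% of all genes tested, and the median was -0.41 over the 39 genes and -0.02 over all genes. They were Kcna1, Kcna2, Kcna6, Kcnc1, Kcnc2, Kcnc4, Kcnq3, Kcnq5, Kcnh1, Kcnj3, Kcnj4, Kcnj9, Kcnn1, Kcnma1, Kcnab1, Kcnab2 and Kcnip4. Kcnq5 had 775 and 953 at 3 h and 630.4 and 372 at 6 h in labelled Neil1-KO mice, against 1602 and 1338 at 3 h and 1032 and 915 at 6 h in WT mice (-0.89 ± 0.14, adjusted p = 0.00411). The pairs were apart at each time, and Kcnq5 kept its call in all 8 fits that left out 1 of these libraries. Kcnj4 had 606 and 688, then 534 and 285 in labelled Neil1-KO mice at 3 h and 6 h, against 907 and 782, then 739 and 1187 in WT mice (-0.82 ± 0.17, adjusted p = 0.00992). Kcna6 had 1016 and 1135, then 960.4 and 745 in labelled Neil1-KO mice, against 1305 and 1245, then 1243 and 1469.5 in WT mice (-0.46 ± 0.09, adjusted p = 0.0079). For Kcnj4 and Kcna6 the 4 labelled Neil1-KO libraries did not overlap the 4 WT ones. Kcnc2 had 473 and 577, then 475 and 287 in labelled Neil1-KO mice, against 935 and 868, then 595 and 463 in WT mice (-0.65 ± 0.12, adjusted p = 0.00767). Kcnma1 had 1586 and 2209.9, then 1593 and 880.4, against 2829.7 and 2433, then 1849 and 2252 in WT mice (-0.64 ± 0.14, adjusted p = 0.0131). Kcna2 had 1042 and 1134, then 974 and 871, against 1590.0 and 1308, then 1096 and 1474 in WT mice (-0.44 ± 0.10, adjusted p = 0.017). For these last 3 genes the genotypes overlapped across times, and within a time only Kcnc2 overlapped, at 6 h.

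**Figure D5:**
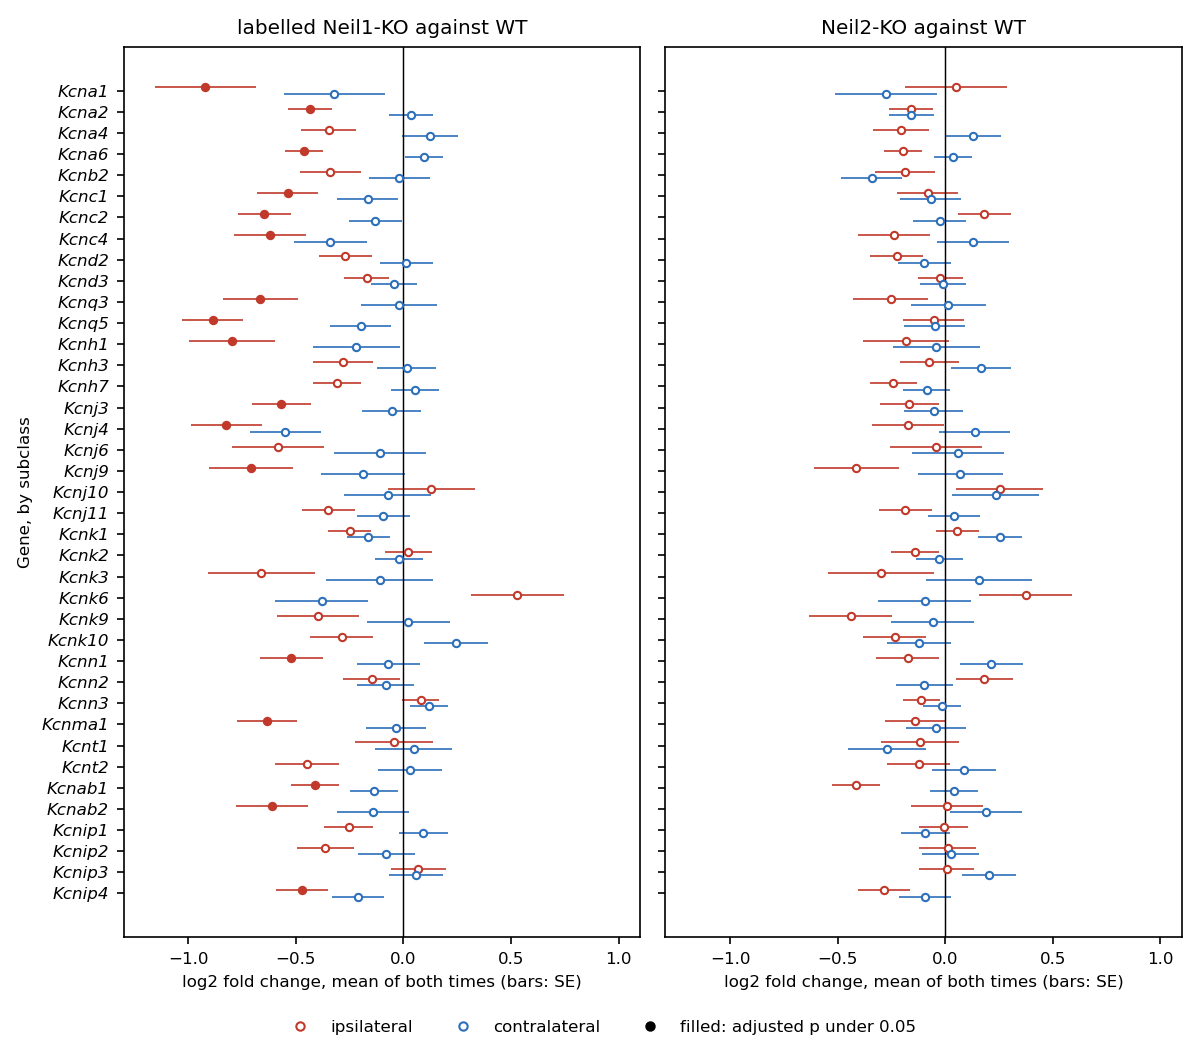
Log2 fold change over WT, mean of both times (x axis; bars are SE), for the 39 genes (y axis, by subclass), labelled Neil1-KO on the left and Neil2-KO on the right; ipsilateral in red, contralateral in blue, filled where the adjusted p is under 0.05. The 17 filled points are all ipsilateral, labelled Neil1-KO and below 0. Scaled to neuron markers 8 genes are called there, 2 of them above 0, and the median of all genes is 0.35. The share of all genes called under that scaling is not given.

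This difference rested on few libraries. The count of 17 became 1 without labelled Neil1-KO ipsilateral 3 h replicate 1, 1 without WT ipsilateral 3 h replicate 1, 3 without WT ipsilateral 6 h replicate 2, 5 without labelled Neil1-KO ipsilateral 6 h replicate 2, 7 without WT ipsilateral 3 h replicate 2, and 32 (31 lower) without labelled Neil1-KO ipsilateral 6 h replicate 1. It was 0 when the fit held only the 4 groups compared, and 6 with a term for libraries with high Xist, the marker of female cells, which were 4 of 8 labelled Neil1-KO libraries and none of 8 WT ones. Neuron markers moved with these genes, with 7 of 10 lower (median -0.48), and scaled to them 8 of the 39 genes were called, 6 lower and 2 higher. The median of all genes was 0.35 under that scaling, and the share of all genes called in each direction is not given here. The difference between genotypes in the side response itself was called for 0 of the 39 genes and 0.0% of all genes, with 14 genes at an unadjusted p under 0.05 by limma (13 more negative in labelled Neil1-KO), 12 by edgeR and 14 by DESeq2. Of these Kcnq5 had the most negative value (-0.69 ± 0.20, adjusted p = 0.303) and Kcnk6 the most positive (0.91 ± 0.31, adjusted p = 0.303). That count was 18 without labelled Neil1-KO ipsilateral 6 h replicate 1 and 2 without WT ipsilateral 6 h replicate 1. On the contralateral side 0 genes were called between labelled Neil1-KO and WT (0.103% of all genes), with 1 at an unadjusted p under 0.05 by limma, 1 by edgeR and 2 by DESeq2; the lowest was Kcnj4 (-0.55 ± 0.17, adjusted p = 0.383).

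None of the 39 genes was called between Neil2-KO and WT mice on either side. Ipsilaterally (0.109% of all genes called) 5 of the 39 genes were at an unadjusted p under 0.05 by limma, 6 by edgeR and 6 by DESeq2, and 4 were called without WT ipsilateral 6 h replicate 1. Kcnab1 had the smallest p, with 956 and 779 normalised counts at 3 h and 494 and 602 at 6 h in Neil2-KO mice, against 1021 and 987 at 3 h and 689 and 1012 at 6 h in WT mice. The pairs were apart at each time, with a log2 fold change of -0.42 ± 0.11, adjusted p = 0.477. Contralaterally (0.0817% of all genes called) 2 genes were at an unadjusted p under 0.05 by each of the 3 tools, and the values ran from -0.34 for Kcnb2 to 0.25 for Kcnk1. The side response differed between Neil2-KO and WT mice for 0 of the 39 genes and 0.0% of all genes, with 1 gene at an unadjusted p under 0.05 by limma, 1 by edgeR and 2 by DESeq2. Both knockouts were set against the same WT libraries, so their comparisons are not independent: ipsilateral Kcna1 was at -0.92 for the label Neil1-KO and at 0.05 for Neil2-KO, Kcnq5 at -0.89 and -0.05, and Kcnj4 at -0.82 and -0.17.

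Of 62 other potassium channel and auxiliary subunit genes on a fixed list, 59 had a line in the table and 51 were tested. In the averaged side comparison 15 of these (29.4%) were higher and 16 (31.4%) lower on the ipsilateral side, shares close to the 28.1% and 27.3% of all genes. Kcne4, a single-pass subunit of Kv channels, had 141 to 609 normalised counts in the ipsilateral libraries, against 7.97 to 51.4 in the contralateral ones. The sides did not overlap, and the log2 fold change was 2.90 ± 0.25, adjusted p = 3.17e-08. Kcnk5, an alkaline-activated K2P channel, had 29.8 to 104 normalised counts in the ipsilateral libraries, against 9.59 to 25.2 in the contralateral ones, again without overlap (1.69 ± 0.17, adjusted p = 1.57e-07). Dpp6, an auxiliary subunit of Kv4 channels, had 2169 to 5536 normalised counts in the ipsilateral libraries, against 5557 to 7078 in the contralateral ones, without overlap (-0.62 ± 0.06, adjusted p = 8.67e-08).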

How the data were processed

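RNA of 24 hippocampus libraries was extracted with the Qiagen AllPrep kit, per the labels' protocols. The authors' processing notes name the build GRCm39 and the tools DESeq2, featureCounts, HISAT2, SAMtools and Trim Galore; versions and strand are not given in the sources used here. The deposited signal values are gene read counts that the authors divided by library size factors, per the submitters' processing notes and the values: dividing by each library's step gave whole reads for 100% of values (tolerance 1e-06). Of 33084 lines, 10770 had no gene name, held 8.41 to 12.5% of reads and were not tested.

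Genes with a value of at least 10 in at least 2 libraries (18364) were tested with limma 3.58.1 in R 4.3.3 on log2(value + 1), with 12 group means fitted to all 24 libraries and Benjamini-Hochberg adjustment over all genes. Fold changes on this scale understate those of low genes. Whole reads were also tested with edgeR 4.0.16 (quasi-likelihood) and DESeq2 1.42.0. Only the limma test was checked on simulated data. In the averaged side comparison edgeR and DESeq2 each called 31 of the 39 genes. Other alternatives were a pseudocount of 5, no filter, TMM scaling, only the compared groups, an animal or number block, terms for high Xist or thalamus markers, and leaving out each library; neuron scaling and leaving out WT at 6 h were chosen after seeing the data. Nothing says that replicates are separate litters or cultures, so p-values measure the spread between these libraries.

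The members and lists were chosen with earlier results of these data known. Values over libraries are given for up to 3 members of each subclass with the smallest p in the averaged side comparison and up to 6 of each other comparison with calls; other members are given by fold change, range or count, and the other channel genes given by library were taken from the 4 with the smallest p of their list, of which 1 is not reported here. Exon lengths and promoters come from GRCm38, used for lengths, names and sequence only.

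The reported fit has no block; same-numbered libraries of the sides were taken as 1 animal in the block alternative alone. Their deviations from group means correlated at 0.27 and 0.15 in labelled Neil1-KO mice at 3 h and 6 h, 0.05 and 0.03 in Neil2-KO mice, and -0.01 and -0.00 in WT mice.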

Additional observations from a re-analysis of the deposited data

Results flagged for a closer look

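The ipsilateral minus contralateral difference of Kcnd2 (Kv4.2) differed between the times. It was -1.39 at 6 h and -0.77 at 3 h on the log2 scale, and the test of the difference itself gave -0.63 ± 0.14 (limma, adjusted p = 0.0318). Over the alternatives and left-out libraries the adjusted p was 0.00149 to 0.285, and the call held in 11 of 24 fits that left out 1 library. Groups of 2 libraries are too small to test for a sample far from the others.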

How the results depend on the processing

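Counts of the 39 genes called kept within 1.5 times of those reported with TMM scaling, edgeR, unfiltered genes and a larger pseudocount (5) in all comparisons. With the animal or number as a replicate block no count moved by over 1.5 times (31 in the averaged comparison, 23, 18 and 9 at 3 h and 28, 22 and 19 at 6 h in labelled Neil1-KO, Neil2-KO and WT mice, and 17 for labelled Neil1-KO against WT ipsilaterally), but Kcnk3 at 6 h against 3 h lost its call (adjusted p = 0.0507). DESeq2 called 14 genes in WT mice at 3 h, 5 in the change of side difference with time (1 higher), and 1 at 6 h against 3 h contralaterally. Fits restricted to the groups compared gave 16 in WT mice at 3 h, 1 and 0 for labelled Neil1-KO against WT contralaterally and ipsilaterally, and 2 and 4 at 6 h against 3 h contralaterally and ipsilaterally. The high Xist term left 6 for labelled Neil1-KO against WT ipsilaterally. The thalamus term left 3 and 4 in Neil2-KO and WT mice at 3 h, 13 and 0 in Neil2-KO and WT mice at 6 h, and 0 for the change of side difference and for 6 h against 3 h ipsilaterally. Causes of these shifts were not tested. Shares of all genes called under these alternatives and under the neuron scaling are not given here.

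Scaled to neuron markers, the counts were 14 (1 higher), 5 and 5 at 3 h in labelled Neil1-KO, Neil2-KO and WT mice, 23 (9 higher), 13 (3 higher) and 19 (6 higher) at 6 h, 28 (9 higher) in the averaged comparison, 4 (all higher) for the change with time, 8 (2 higher) for labelled Neil1-KO against WT ipsilaterally and 16 (10 higher) at 6 h against 3 h ipsilaterally. Signs turned positive in labelled Neil1-KO mice at 6 h for Kcna6 (0.19), Kcnd3 (0.079), Kcnh7 (0.11), Kcnj11 (0.024), Kcnk1 (0.34), Kcnk9 (0.03), Kcnt1 (0.036), Kcnt2 (0.20) and Kcnab1 (0.072). They did so in Neil2-KO mice at 6 h for Kcnk1 (0.017), and in the averaged comparison for Kcna6 (0.19), Kcnc2 (0.014), Kcnj11 (0.041), Kcnk9 (0.058), Kcnt1 (0.14), Kcnt2 (0.038) and Kcnip4 (0.11). At 6 h against 3 h ipsilaterally Kcna2 turned to 0.040. Of all gene-level values under alternatives, 2793 kept direction and call, 486 kept direction only and 18 turned.

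Leaving out 1 library gave 10 to 22, 0 to 8 and 0 to 6 genes at 3 h in labelled Neil1-KO, Neil2-KO and WT mice, 24 to 30, 13 to 17 and 11 to 19 at 6 h, and 30 to 33 in the averaged comparison. It gave 0 to 11 for the change with time, 0 to 18 and 0 to 0 for the side response of labelled Neil1-KO and Neil2-KO against WT, 1 to 32 and 0 to 4 for the ipsilateral levels of labelled Neil1-KO and Neil2-KO against WT, 0 to 0 for both contralaterally, and 0 to 0 and 9 to 20 at 6 h against 3 h contralaterally and ipsilaterally. In these fits a lone library is assumed to vary like the other groups. With 2 libraries a group, small differences were not detectable, and Kcnk3, Kcna1 and Kcnk6 had the widest errors in the averaged comparison.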

Other observations

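Electrically silent Kv subunits, which form channels only with Kv2 partners, were outside the 39 genes and were looked at after their values were seen. Of 9 tested, 5 were lower, 1 was higher and 3 did not pass the test in the averaged side comparison. Kcng2 was at -1.11 ± 0.17, Kcnv1 at -0.98 ± 0.11, Kcns2 at -0.77 ± 0.12, Kcns3 at -0.54 ± 0.12 and Kcns1 at -0.34 ± 0.13 on the log2 scale (limma, adjusted p = 1.88e-05, 6.25e-07, 2.53e-05, 0.000783 and 0.0326), beside -0.94 ± 0.08 for the Kv2 gene Kcnb2. Kcng1, Kcng3 and Kcng4 were at -0.11 ± 0.11, 0.03 ± 0.24 and 0.22 ± 0.15 (adjusted p = 0.420, 0.933 and 0.209). Kcnf1, another silent subunit, was higher (0.51 ± 0.10, adjusted p = 0.000192). Its pairs lay farthest apart in WT mice at 6 h, with 1598 and 2605 normalised counts ipsilaterally, against 785 and 748 contralaterally. They overlapped in labelled Neil1-KO mice at 3 h, with 1019 and 1413 ipsilaterally, against 1088 and 1028 contralaterally.

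Other channel genes were chosen after their values were seen, and their differences from relatives among the 39 were not tested. Kcnj5 (GIRK4) was higher on the ipsilateral side (0.92 ± 0.11, adjusted p = 2.06e-06), while Kcnj3 and Kcnj6 were lower. Kcnh4 was higher (0.86 ± 0.14, adjusted p = 4.22e-05), while Kcnh1, Kcnh3 and Kcnh7 were lower. Lrrc26, an auxiliary subunit of the BK channel, was lower (-1.36 ± 0.15, adjusted p = 6.8e-07), as Kcnma1 was.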
